A study of Mus musculus with 14 samples.

Results

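Transcript levels of 10 genes that set the pace of the G1 phase of the cell cycle were followed across 14 RNA-seq libraries of mouse leukemic stem cells (LSCs). They were the D-type cyclins Ccnd1, Ccnd2 and Ccnd3, the E-type cyclins Ccne1 and Ccne2, the Cip/Kip inhibitors Cdkn1a, Cdkn1b and Cdkn1c, and the INK4 inhibitors Cdkn2c and Cdkn2d. The genes were taken by symbol, with earlier results of these data known, and all 10 were among the 24463 genes measured.

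D-type cyclins bind and activate the kinases Cdk4 and Cdk6, and E-type cyclins activate Cdk2. Both kinase groups phosphorylate the retinoblastoma protein, which frees E2F factors to switch on genes for DNA synthesis. INK4 proteins block Cdk4 and Cdk6, Cip/Kip proteins bind cyclin and kinase complexes and block Cdk2, and in blood stem cells the inhibitors are known for keeping cells out of division.

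Lineage-negative bone marrow cells were grown with stem cell factor and thrombopoietin and received a retrovirus carrying p210 BCR-ABL, the fusion kinase of chronic myeloid leukemia, at 2 times 24 h apart. At 48 h after isolation, GFP-positive cells that lacked lineage markers and carried c-Kit and Sca1 were sorted as LSCs. Every group, controls included, thus came from cells given the virus, and the level of the kinase was not examined here. LSCs from control marrow were then kept for 6 h with 20 µM prostaglandin E1 (PGE1, n = 3), 20 µM prostaglandin E2 (PGE2, n = 2) or the vehicle (DMSO, n = 3). Untreated LSCs came from Tcf1/Lef1-deficient marrow (dKO, n = 3) or wild-type marrow (WT, n = 3). PGE1 and PGE2 are prostanoids that act on the same family of cell-surface receptors, and PGE2 has an additional carbon-carbon double bond in a side chain. Tcf1 (gene Tcf7) and Lef1 carry beta-catenin, the effector of Wnt signals, to DNA. The Cre driver, the exons removed, the age of the mice and any pooling of animals are not given in these sources.

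Levels are in FPKM, fragments scaled by gene length and by library depth, so that levels of different genes can be set side by side. Reads in genes numbered 11.3 to 13.4 M in the PGE1, PGE2 and DMSO libraries and 19.0 to 20.6 M in the dKO and WT libraries. Nothing in the labels ties replicates to separate animals or cultures, so the p-values reflect spread between these libraries alone, and that spread may be technical. PGE1 replicate 2 and DMSO replicate 1 stood apart from their groups over genes with 1000 to 10000 reads. Pairs with PGE1 replicate 2 varied 30.8 and 32.2 times as much as counting noise, against 7.18 times for the remaining pair. Pairs with DMSO replicate 1 varied 12.4 and 14.4 times as much, against 1.73 times for the remaining pair. In dKO, pairs with replicate 1 varied 8.17 and 8.6 times as much, against 4.18 times for the remaining pair. The deleted gene Tcf7 averaged 0.0997 ± 0.0674 FPKM in dKO libraries and 1.31 ± 0.167 FPKM in WT libraries (SD, n = 3 each). It averaged 6.66 FPKM after PGE1, 0.845 FPKM after PGE2 and 1.14 FPKM after DMSO. Lef1, the other deleted gene, was low in both genotypes, at 0.151 ± 0.0411 FPKM in dKO (13 to 21 reads). In WT it was at 0.283 ± 0.0524 FPKM (27 to 38 reads). In dKO replicate 1 and DMSO replicate 1 the genotype field contradicts the sample's title; groups here follow the titles, as did Tcf7, at 0.142 FPKM in that dKO library and 1.03 FPKM in that DMSO library. Kit, which encodes c-Kit, was at 20.8 to 48.5 FPKM in every library, and Ly6a, which encodes Sca1, was at 2.86 to 3.53 FPKM in dKO and at 10.4 to 17.8 FPKM across the other 11 libraries.

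**Figure D1:**
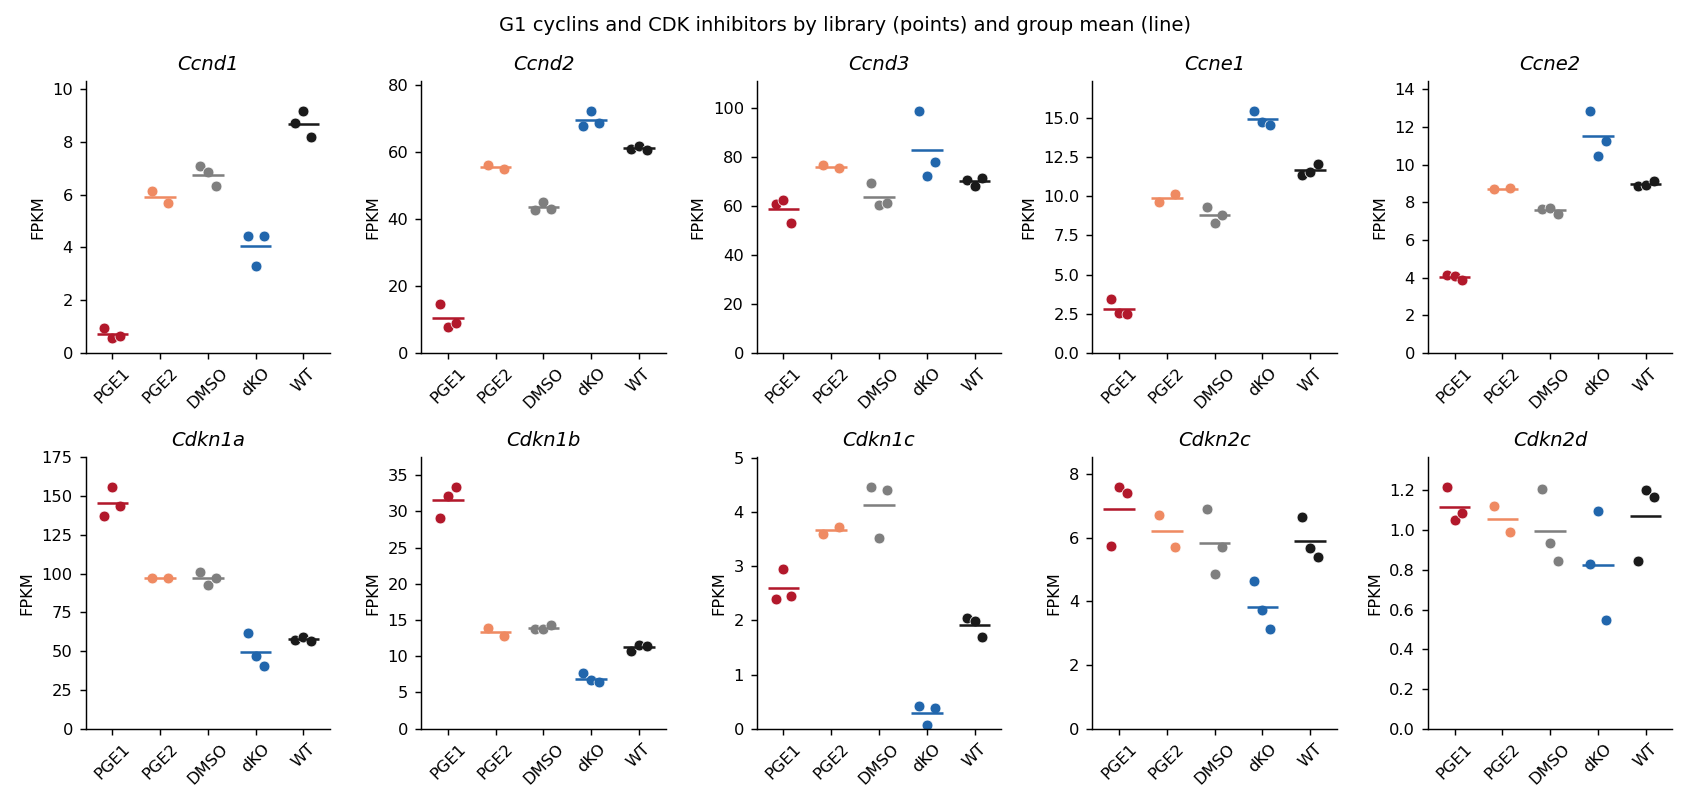
FPKM of each of the 10 genes (1 panel per gene, linear axes from 0) in the PGE1, PGE2, DMSO, dKO and WT groups; points are libraries and bars are group means. Ccnd1, Ccnd2, Ccne1 and Ccne2 are lowest in the PGE1 libraries, Cdkn1a and Cdkn1b are highest there, and Cdkn1c is lowest in dKO.

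The effect of PGE1 was read against DMSO. After 6 h with PGE1, both E-type cyclins and the D-type cyclins Ccnd1 and Ccnd2 fell, the inhibitors Cdkn1a and Cdkn1b rose, and the inhibitor Cdkn1c fell. In all, 7 of the 10 genes passed the test (limma, Benjamini-Hochberg adjusted p under 0.05 over 11242 genes), 2 of them higher and 5 lower. PGE1 moved much of the transcriptome, with 49.1% of all genes tested called, 23.6% higher and 25.5% lower, and with PGE1 and DMSO libraries that did not overlap in 57.2%. The median log2 difference was -0.31 over the 10 genes and 0.01 over all genes tested. Each of the 7 calls passed under every alternative in which the gene was tested, including without PGE1 replicate 2 and without DMSO replicate 1.

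Ccnd1 encodes cyclin D1, a D-type cyclin whose level is known to follow growth signals. It was at 0.946, 0.554 and 0.639 FPKM in the PGE1 libraries (79, 41 and 51 reads), against 7.09, 6.86 and 6.34 FPKM in the DMSO libraries (580, 591 and 515 reads). Every PGE1 library lay far below every DMSO library. The means, 0.713 ± 0.206 FPKM after PGE1 and 6.76 ± 0.382 FPKM after DMSO (SD, n = 3 each), differed 9.48-fold, with a log2 difference of -2.19 on the log2(FPKM + 1) scale (SE 0.10; adjusted p = 1.53e-06). That scale understates changes of low genes, and Ccnd1 met the minimum mean of 1 FPKM only through the DMSO and PGE2 libraries. In bulk RNA a smaller number of cells with a transcript and less transcript per cell cannot be told apart, here and in every comparison that follows.

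Ccnd2 encodes cyclin D2, which is known to be induced by BCR-ABL and by cytokine signals. It was at 14.7, 7.63 and 8.88 FPKM after PGE1, against 42.7, 45.1 and 43.0 FPKM after DMSO, again with no overlap. Its mean fell to 10.4 ± 3.79 FPKM in PGE1 libraries, against 43.6 ± 1.32 FPKM in DMSO libraries, 4.19-fold lower (log2 difference -2.02, SE 0.19, adjusted p = 5.06e-05). PGE1 replicate 1 was the highest of its group. Ccnd3, which encodes cyclin D3, did not pass: it was at 60.9, 62.4 and 53.1 FPKM after PGE1, against 69.6, 60.3 and 61.2 FPKM after DMSO, and the groups overlapped (log2 difference -0.11, 95% CI -0.30 to 0.08, adjusted p = 0.282).

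The summed FPKM of the D-type cyclins was 69.95 ± 7.02 after PGE1, 137.5 ± 2.08 after PGE2 and 114.0 ± 4.69 after DMSO. Ccnd3 made up 84.3% ± 4.46 of that sum after PGE1, 55.3% ± 0.193 after PGE2 and 55.8% ± 2.34 after DMSO (SD, n = 3, 2 and 3). Ccnd2 made up 14.7% ± 4.23 after PGE1, 40.4% ± 0.0400 after PGE2 and 38.3% ± 2.29 after DMSO. In untreated cells Ccnd3 made up 52.8% ± 4.52 of the sum in dKO and 50.1% ± 1.06 in WT. These shares are a description and were not tested.

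**Figure D2:**
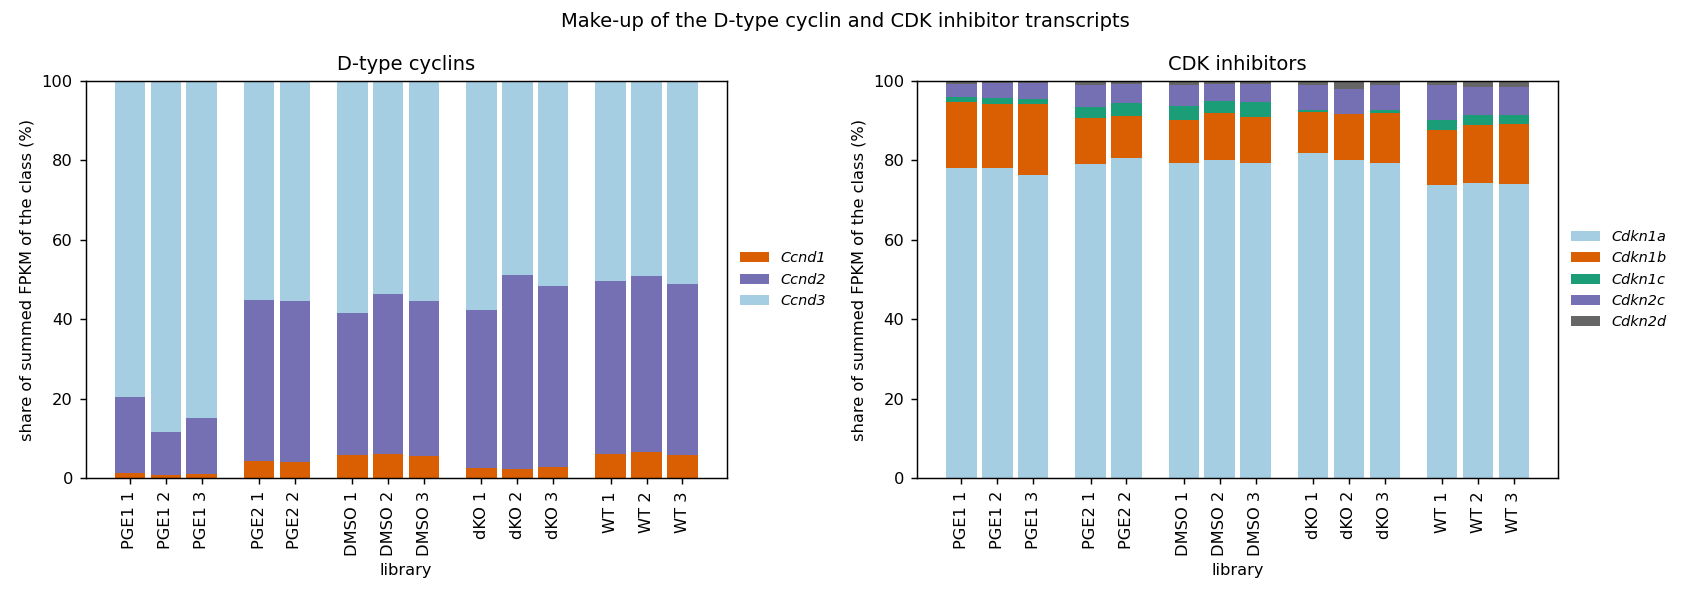
Makeup of the D-type cyclins and of the CDK inhibitors as percent of the summed FPKM of each class; each bar is 1 library, grouped as PGE1, PGE2, DMSO, dKO and WT, and colours are genes. By group mean, Ccnd3 is 84.3% of the D-type cyclin FPKM in PGE1 libraries and 50.1% to 55.8% in the other groups, while Cdkn1a is 74.1% to 80.5% of the inhibitor FPKM in every group.

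Ccne1 encodes cyclin E1, a partner of Cdk2 at the entry to S phase. It was at 3.46, 2.57 and 2.48 FPKM after PGE1, against 9.34, 8.31 and 8.82 FPKM after DMSO. The groups did not overlap, and the mean fell 3.11-fold, to 2.84 ± 0.543 FPKM in PGE1 libraries against 8.82 ± 0.518 FPKM in DMSO libraries (log2 difference -1.36, SE 0.10, adjusted p = 1.89e-05). Ccne2, which encodes the related cyclin E2, was at 4.15, 4.09 and 3.87 FPKM after PGE1, against 7.66, 7.68 and 7.37 FPKM after DMSO. It fell by less, 1.88-fold, with a narrow spread in both groups (log2 difference -0.77, SE 0.06, adjusted p = 3.13e-05). Ccne1 held 41.0% ± 3.85 of the E-type cyclin FPKM after PGE1 and 53.8% ± 1.60 after DMSO, so that Ccne2 was the more abundant transcript in PGE1 libraries and the less abundant in DMSO libraries.

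Cdkn1b encodes p27, a Cip/Kip inhibitor of cyclin E and Cdk2 that is known to accumulate in resting cells. It was at 29.1, 32.1 and 33.4 FPKM after PGE1, against 13.7, 13.7 and 14.3 FPKM after DMSO. Every PGE1 library was above every DMSO library, and the mean rose 2.27-fold, to 31.5 ± 2.22 FPKM in PGE1 libraries against 13.9 ± 0.317 FPKM in DMSO libraries (log2 difference 1.12, SE 0.07, adjusted p = 6.14e-06). Cdkn1a encodes p21, the inhibitor known as a target of p53. It was at 137, 156 and 144 FPKM after PGE1, against 101, 92.5 and 97.1 FPKM after DMSO, and rose 1.50-fold (log2 difference 0.58, SE 0.07, adjusted p = 0.000199).

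Cdkn1c encodes p57, an inhibitor known for its part in the quiescence of blood stem cells. It went the other way from its family members, at 2.39, 2.96 and 2.45 FPKM after PGE1, against 4.47, 3.51 and 4.40 FPKM after DMSO. It fell 1.59-fold (log2 difference -0.51, SE 0.10, adjusted p = 0.00364). The INK4 inhibitor Cdkn2c, which encodes p18, was at 5.75, 7.60 and 7.40 FPKM after PGE1, against 6.92, 4.86 and 5.70 FPKM after DMSO, and the groups overlapped (log2 difference 0.22, 95% CI -0.09 to 0.53, adjusted p = 0.214). Cdkn2d, which encodes p19 of the INK4 family, lay near 1 FPKM in every group, at 1.12 ± 0.0880 FPKM after PGE1 and 0.996 ± 0.187 FPKM after DMSO (adjusted p = 0.501).

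Set against each other, the summed FPKM of the 5 inhibitors over that of the 5 cyclins was 2.46 ± 0.338 after PGE1, 0.776 ± 0.00153 after PGE2 and 0.934 ± 0.0322 after DMSO. In untreated cells this ratio was 0.333 ± 0.0455 in dKO and 0.484 ± 0.0146 in WT. Libraries ran from 2.08 to 2.73 after PGE1 and from 0.901 to 0.966 after DMSO, and from 0.286 to 0.377 in dKO against 0.471 to 0.5 in WT. Cdkn1a supplied most of the inhibitor sum in every group, 77.5% after PGE1 and 79.6% after DMSO, and Cdkn1b supplied 16.8% ± 0.846 after PGE1 and 11.4% ± 0.597 after DMSO. The ratio is of transcripts, which need not follow protein levels, and it was not tested.

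**Figure D3:**
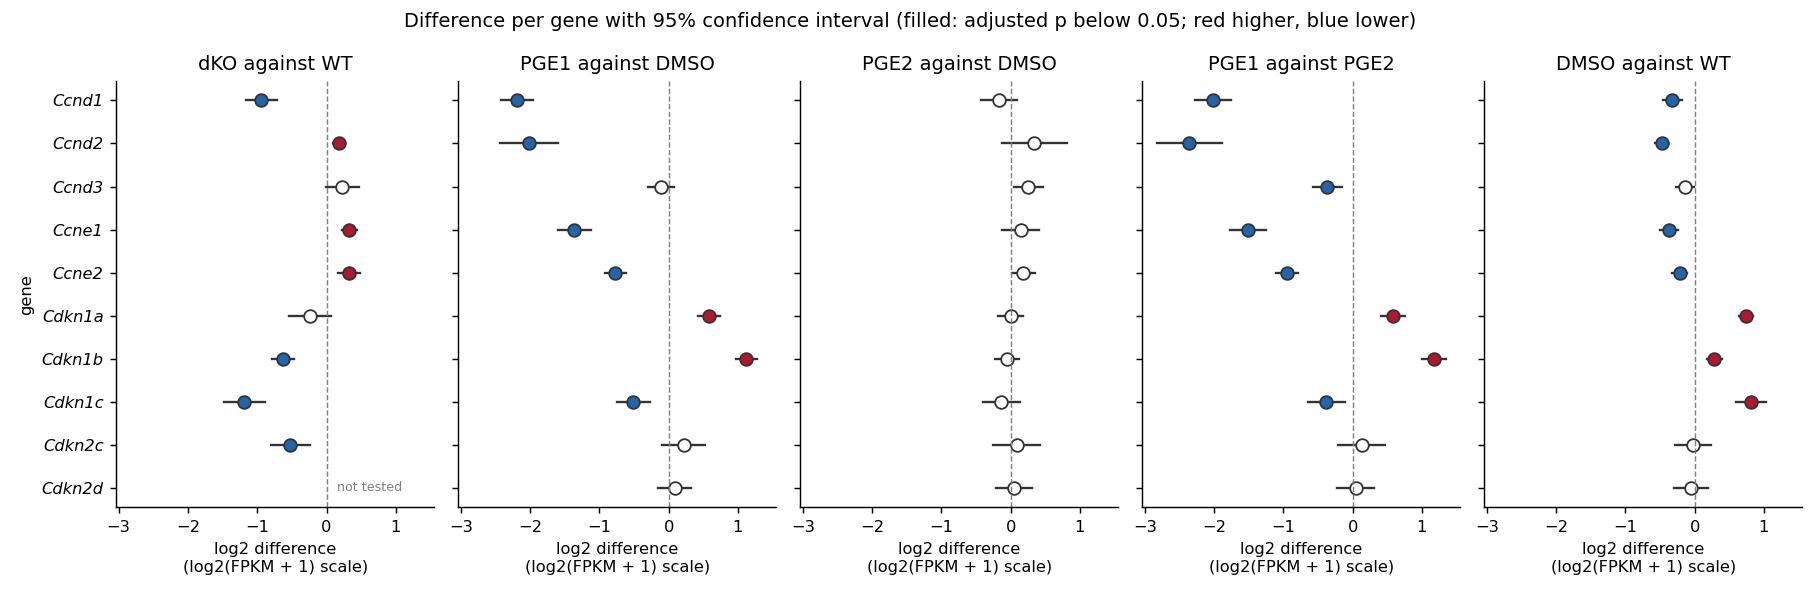
Log2 difference of each gene on the log2(FPKM + 1) scale, with its 95% confidence interval, in each comparison. The D-type cyclins Ccnd1 and Ccnd2 reach -2.19 and -2.02 in PGE1 against DMSO and Cdkn1b reaches 1.12, whereas every interval of PGE2 against DMSO lies between -0.43 and 0.81.

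Promoter windows were taken from RefSeq (build GRCm38.p6, from 250 bases before to 50 after a gene's start), which gave 9 windows for 6 of the 10 genes. The windows of Ccne1 and Cdkn1b are printed 5′ to 3′ on the strand of the gene, because among these 6 genes Ccne1 fell most and Cdkn1b rose most after PGE1, and the second Ccnd3 window because it belongs to the D-type cyclin that did not pass. Capitals mark the letters TGACG or their reverse complement, the core of the cAMP response element (CRE); no searched motif was found in the Ccne1 window, which has no capitals.
Ccne1 (chr7:38107441-38107740, minus strand): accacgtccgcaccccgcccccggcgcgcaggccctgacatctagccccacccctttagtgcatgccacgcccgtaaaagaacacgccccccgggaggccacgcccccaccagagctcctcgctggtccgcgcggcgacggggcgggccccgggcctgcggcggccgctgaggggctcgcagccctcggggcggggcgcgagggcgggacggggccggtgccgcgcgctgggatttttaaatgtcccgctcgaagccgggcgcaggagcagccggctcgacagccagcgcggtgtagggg
Cdkn1b (chr6:134920151-134920450, plus strand): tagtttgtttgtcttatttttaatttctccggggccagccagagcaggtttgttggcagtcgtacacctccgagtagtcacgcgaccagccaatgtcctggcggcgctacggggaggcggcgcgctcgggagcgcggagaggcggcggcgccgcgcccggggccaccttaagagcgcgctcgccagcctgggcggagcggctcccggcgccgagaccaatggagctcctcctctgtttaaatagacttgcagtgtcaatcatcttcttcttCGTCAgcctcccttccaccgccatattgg
Ccnd3 (chr17:47593217-47593516, plus strand): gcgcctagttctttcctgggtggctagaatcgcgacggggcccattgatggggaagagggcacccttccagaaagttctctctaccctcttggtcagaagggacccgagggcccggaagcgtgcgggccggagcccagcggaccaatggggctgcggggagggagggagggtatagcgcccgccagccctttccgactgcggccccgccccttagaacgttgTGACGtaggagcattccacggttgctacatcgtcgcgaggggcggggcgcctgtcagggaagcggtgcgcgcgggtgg
The core in Cdkn1b begins at position 272 of the window, past the start of the gene, and that in Ccnd3 at position 223, both counted from 1 at the 5′ end. Motifs were searched on both strands. They were the core, the full CRE (TGACGTCA), which contains the core, the AP-1 motif (TGANTCA), the Tcf/Lef motif (CTTTGA), the E2F motif (TTTNNCGC) and the FoxO motif (GTAAACA). Of 32851 promoter windows, 1.79% held the full CRE, 20.8% its core, 7.81% the AP-1 motif, 16.0% the Tcf/Lef motif, 5.17% the E2F motif and 3.65% the FoxO motif. The first Ccnd3 window held the core at position 86 and the FoxO motif at position 8, and no window of Cdkn1a, Cdkn2c or Cdkn2d held any of the 6. Such matches describe letters in these windows and say nothing of binding.

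Genes that act with the cyclins moved in both directions after PGE1. Of 8 G1 kinases and partners 2 were higher and 5 lower, with a median log2 difference of -0.35. Cdk4, the kinase of the D-type cyclins, fell to 94.9 FPKM in PGE1 libraries, against 139.5 FPKM in DMSO libraries (adjusted p = 0.00107). Cdc25a, the phosphatase that activates Cdk2, fell to 8.46 FPKM, against 16.9 FPKM after DMSO (adjusted p = 2.9e-05), while Mnat1, an assembly factor of the CDK-activating kinase, rose to 11.0 FPKM, against 7.61 FPKM after DMSO (adjusted p = 0.00843). Without DMSO replicate 2 or without DMSO replicate 3, 1 gene of this list was higher and 3 were lower.

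Of 13 pocket proteins, E2F and DP factors, 3 were higher and 5 lower after PGE1 (median -0.20). The activator E2f2 rose to 9.16 FPKM in PGE1 libraries, against 4.64 FPKM in DMSO libraries (adjusted p = 3.53e-05). The repressor E2f6 fell to 6.75 FPKM, against 12.1 FPKM after DMSO (adjusted p = 4.96e-05), and Tfdp1, a DNA-binding partner of E2F proteins, fell to 20.6 FPKM, against 34.9 FPKM after DMSO (adjusted p = 7.36e-05). Of 14 S-phase genes none was higher and 8 were lower (median -0.22). Rrm2, a subunit of ribonucleotide reductase, stood at 28.4 FPKM after PGE1 and 50.95 FPKM after DMSO (adjusted p = 0.000437). Mcm2, of the replicative helicase, stood at 38.3 FPKM after PGE1 and 55.1 FPKM after DMSO (adjusted p = 0.000582). Cdc6, which loads that helicase, stood at 3.47 FPKM after PGE1 and 6.33 FPKM after DMSO (adjusted p = 0.000215).

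Among 9 genes that turn over G1 cyclins and inhibitors, 4 were higher and 1 was lower after PGE1 (2 higher and 1 lower without DMSO replicate 1, 4 and 3 without PGE1 replicate 2, and 2 and 2 without PGE1 replicate 3). The gene that fell was Skp2, which marks p27 for destruction, at 3.98 FPKM in PGE1 libraries and 5.79 FPKM in DMSO libraries (adjusted p = 0.003). Fbxo31, an F-box protein known to target cyclin D1, rose to 21.8 FPKM, against 9.79 FPKM after DMSO (adjusted p = 4.32e-05), and Fbxo4, another F-box protein linked to cyclin D1, to 3.83 FPKM, against 2.78 FPKM after DMSO (adjusted p = 0.00741). Of the other inhibitor genes only Cdkn3, a phosphatase that acts on Cdk2, was high enough to test in any comparison, and it passed in none. Cdkn2b, which encodes the INK4 protein p15, stayed below the minimum level, at 0.522 to 0.581 FPKM after PGE1 and 0.599 to 0.872 FPKM after DMSO. Cdkn2a, which encodes p16 and p19Arf, had 0 to 1 read per library after PGE1 and 5 to 9 after DMSO.

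**Figure D4:**
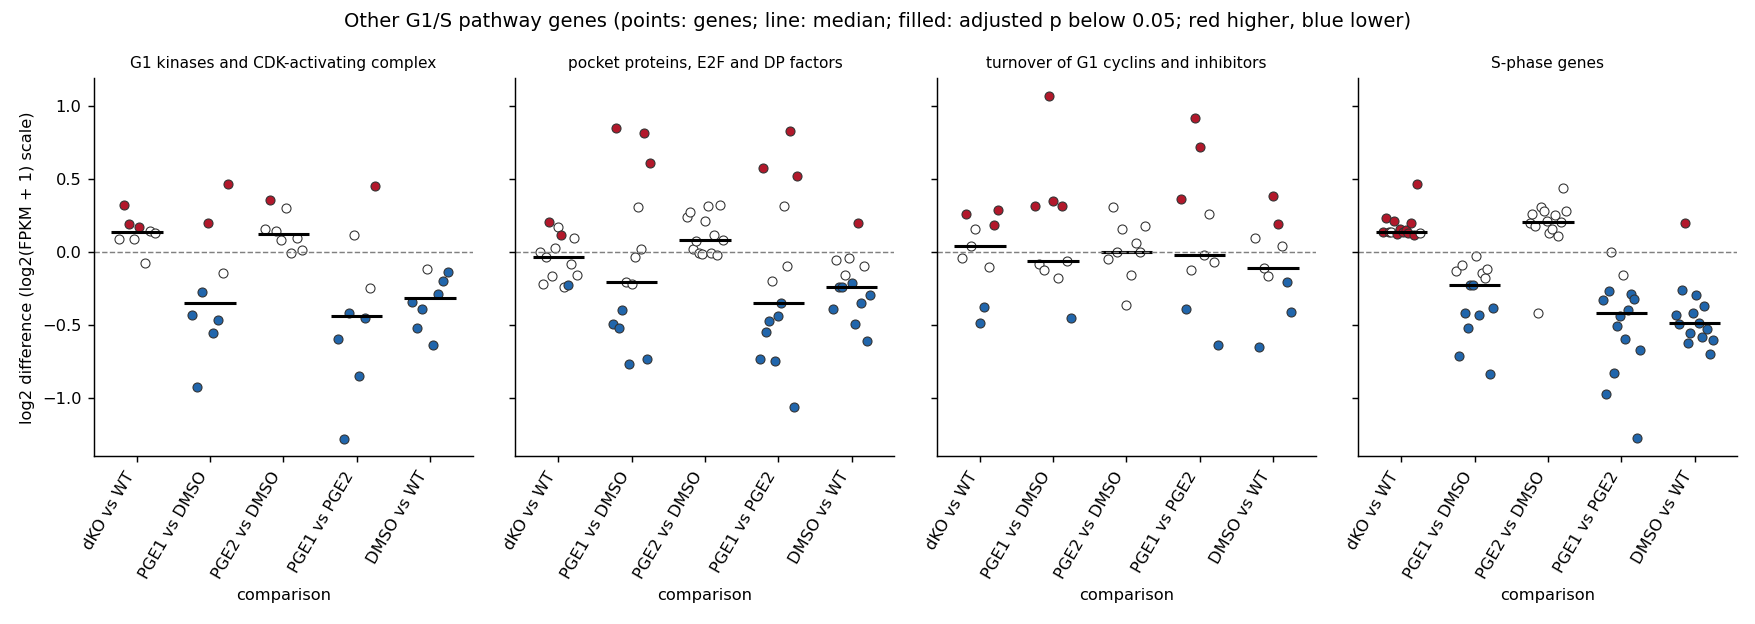
Log2 differences (log2(FPKM + 1) scale) of the genes in the 4 pathway lists, by comparison; each point is a gene and the line is the median of the list. The S-phase genes have a median of -0.22 in PGE1 against DMSO, -0.42 in PGE1 against PGE2, -0.49 in DMSO against WT and 0.14 in dKO against WT.

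Markers of other myeloid cells moved with PGE1 as well, and their part in these differences was not tested. Of 9 neutrophil markers tested, none was higher and 7 were lower after PGE1, and the summed FPKM of the list was 1635 to 2354 in PGE1 libraries against 3447 to 4118 in DMSO libraries. Of 7 mast cell and basophil markers 4 were higher and 1 was lower (none lower without PGE1 replicate 1, PGE1 replicate 3 or any DMSO library), with sums of 253.6 to 329.1 after PGE1 against 186.2 to 206.8 after DMSO. Monocyte markers were split, 3 higher and 4 lower of 9, with overlapping sums of 896.6 to 1117 after PGE1 against 845.8 to 987.5 after DMSO. Megakaryocyte markers (1 higher and 2 lower of 8, and 2 higher without PGE1 replicate 1) and erythroid markers (2 and 2 of 5) moved less uniformly, and of the 2 lymphoid markers tested 1 was lower. No marker was at 0 in every library.

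Of the 6 sort and early progenitor genes 3 were higher and 2 lower after PGE1, and their part was likewise not tested. Kit stood at 42.2 FPKM after PGE1 and 26.1 FPKM after DMSO (adjusted p = 0.00142), the stem and progenitor factor Meis1 at 15.1 FPKM after PGE1 and 6.83 FPKM after DMSO (adjusted p = 1.32e-05), and Gata2, another such factor, at 60.1 FPKM after PGE1 and 39.5 FPKM after DMSO (adjusted p = 7.07e-05). Cd34, a surface protein of progenitors, was lower, at 19.4 FPKM after PGE1 and 40.9 FPKM after DMSO (adjusted p = 4.81e-06), as was Mpo, an enzyme of granulocyte precursors, at 295.6 FPKM after PGE1 and 1331 FPKM after DMSO (adjusted p = 0.000432). Ly6a did not pass (adjusted p = 0.308). Xist, the RNA that coats the inactive X chromosome of female cells, was at 3.54 to 8.14 FPKM after PGE1, 14.6 to 14.9 FPKM after PGE2 and 9.05 to 11.2 FPKM after DMSO, and was called lower after PGE1 than after DMSO (adjusted p = 0.0169) and than after PGE2 (adjusted p = 0.00266). The Y-linked Ddx3y was at 8.69 to 9.64 FPKM after PGE1, 6.99 to 8.07 FPKM after PGE2 and 6.49 to 8.05 FPKM after DMSO. These libraries thus held transcripts of both sexes, and for Ddx3y every PGE1 library lay above every PGE2 and DMSO library. Any difference in sex makeup cannot be told apart from the effect of PGE1 here, and its part was not tested.

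PGE2 was given at the same dose for the same 6 h. None of the 10 genes passed the test against DMSO (limma, Benjamini-Hochberg, 0 of 10). Before adjustment 2 of them, Ccnd3 and Ccne2, were under 0.05 in the same limma fit, as were 20.8% of all genes tested. Few genes did pass: 5.57% of all tested, 0.996% higher and 4.57% lower. The median log2 difference was 0.07 over the 10 genes. The 95% confidence intervals of single genes are not adjusted for the number of genes. They use a spread shared with the PGE1 libraries, so they do not measure that of the PGE2 libraries alone.

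Ccnd1 was at 6.12 and 5.70 FPKM after PGE2, just below the 7.09, 6.86 and 6.34 FPKM of the DMSO libraries (log2 difference -0.17, 95% CI -0.43 to 0.09, adjusted p = 0.459). Ccnd2 was at 56.1 and 54.8 FPKM after PGE2, above the 42.7, 45.1 and 43.0 FPKM after DMSO without overlap, yet the difference of 0.34 had an interval of -0.13 to 0.81 (adjusted p = 0.396), since the spread of the fit includes the PGE1 libraries. Left without PGE1 replicate 1, the same difference of 0.34 passed (adjusted p = 0.0364). Ccnd3 was at 76.7 and 75.4 FPKM after PGE2, against 69.6, 60.3 and 61.2 FPKM after DMSO (log2 difference 0.26, adjusted p = 0.158). For 5 of the 10 genes the PGE2 and DMSO libraries did not overlap, near the 49.1% of all genes tested, and none was called.

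Ccne1 was at 9.61 and 10.1 FPKM after PGE2 (log2 difference 0.15 against DMSO, adjusted p = 0.528), and Ccne2 at 8.69 and 8.76 FPKM (log2 difference 0.18, adjusted p = 0.194). Both E-type cyclins were higher in each PGE2 library than in any DMSO library. The inhibitors overlapped between the groups. Cdkn1a was at 96.9 and 96.8 FPKM after PGE2, within the range of DMSO, with a log2 difference of 0.00 and a 95% CI of -0.18 to 0.18. Cdkn1b was at 13.9 and 12.9 FPKM (log2 difference -0.05, 95% CI -0.22 to 0.12), Cdkn1c at 3.60 and 3.73 FPKM (-0.13, 95% CI -0.40 to 0.13), Cdkn2c at 6.73 and 5.70 FPKM (0.09) and Cdkn2d at 1.12 and 0.992 FPKM (0.05). Of the pathway genes 1 passed, Cdc25a, at 21.9 FPKM after PGE2 and 16.9 FPKM after DMSO (adjusted p = 0.0473); it did not pass with a pseudocount of 0.1, without the filter or without either PGE2 replicate, among others. No S-phase gene passed (0 of 14, limma; median log2 difference 0.21), but 10 of the 14 were under 0.05 before adjustment in the same limma fit, against the 20.8% of all genes. Left without PGE1 replicate 2, 4 passed as higher and 1 as lower, and without PGE1 replicate 1, 3 passed as higher. Of the marker lists, 3 of 9 monocyte and 1 of 9 neutrophil markers were higher after PGE2 (none of either without PGE2 replicate 1 or 2, and 1 and 0 without DMSO replicate 2 or 3), and 1 of 2 lymphoid markers was lower. Left without PGE1 replicate 2, 3 of 9 neutrophil and 3 of 8 megakaryocyte markers were higher, and the part of these markers was not tested.

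The 2 compounds were also compared with each other, as 1 pair at matched dose and time. Of the 10 genes, 8 differed between PGE1 and PGE2, 2 higher and 6 lower after PGE1, where 53.9% of all genes were called, 27.2% higher and 26.7% lower, and where the libraries did not overlap in 69.9%. This contrast uses the same PGE1 libraries as that against DMSO. With 1 FPKM added before taking logs, which shrinks the gap of a low gene such as Ccnd1, Ccnd2 had the widest gap, with a mean of 10.4 FPKM after PGE1 and 55.5 FPKM after PGE2, a 5.33-fold difference (log2 difference -2.36, SE 0.21, adjusted p = 4.04e-05). By the ratio of means the gap of Ccnd1 was wider, 8.29-fold, at 0.713 FPKM after PGE1 and 5.91 FPKM after PGE2 (log2 difference -2.02, adjusted p = 7.16e-06).

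Ccne1 was at 2.84 FPKM after PGE1 and 9.88 FPKM after PGE2, a log2 difference of -1.51 (adjusted p = 2.48e-05). Ccne2 was at 4.04 FPKM after PGE1 and 8.72 FPKM after PGE2, a log2 difference of -0.95 (adjusted p = 2.34e-05). Both E-type cyclins were thus lower with PGE1, without overlap. Cdkn1b was at 31.5 FPKM after PGE1 and 13.4 FPKM after PGE2 (log2 difference 1.17, adjusted p = 1.21e-05), and Cdkn1a at 145.5 FPKM after PGE1 and 96.8 FPKM after PGE2 (0.58, adjusted p = 0.000327).

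The calls of Ccnd3 and Cdkn1c were lost without some single libraries, though their log2 differences moved little. With single libraries left out these ran from -0.413 to -0.298 for Ccnd3 and from -0.448 to -0.336 for Cdkn1c. Without either PGE2 replicate, 1 library was left in that group. Ccnd3 was at 58.8 FPKM after PGE1 and 76.1 FPKM after PGE2 (log2 difference -0.37, adjusted p = 0.00881), and did not pass without PGE2 replicate 1 (adjusted p = 0.0615) or PGE2 replicate 2 (0.0505). Cdkn1c was at 2.60 FPKM after PGE1 and 3.66 FPKM after PGE2 (log2 difference -0.38, adjusted p = 0.023), and did not pass without PGE1 replicate 1 (adjusted p = 0.0583), PGE1 replicate 3 (0.0564), PGE2 replicate 1 (0.0864) or PGE2 replicate 2 (0.119). Cdkn2c and Cdkn2d did not differ beyond their spread, with log2 differences of 0.13 (95% CI -0.21 to 0.47) and 0.04 (95% CI -0.22 to 0.30).

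Of 14 S-phase genes none was higher and 12 were lower after PGE1 than after PGE2 (median -0.42), and of 8 G1 kinases and partners 1 was higher and 5 were lower (0 and 3 without either PGE2 replicate). Cdk4 stood at 94.9 FPKM after PGE1 and 171.3 FPKM after PGE2 (adjusted p = 0.000165), and Ccnh, the cyclin of the CDK-activating kinase, at 9.87 FPKM after PGE1 and 15.4 FPKM after PGE2 (adjusted p = 0.0031). Of 13 pocket proteins and E2F or DP factors 3 were higher and 7 lower (4 lower without PGE2 replicate 2). Tfdp1 was lower, at 20.6 FPKM after PGE1 and 43.9 FPKM after PGE2 (adjusted p = 2.47e-05). E2f6 was lower too, at 6.75 FPKM after PGE1 and 11.98 FPKM after PGE2 (adjusted p = 9.02e-05). Rbl2, the pocket protein p130 of resting cells, was higher after PGE1, at 16.5 FPKM, than after PGE2, at 8.82 FPKM (adjusted p = 0.000137). Of 9 turnover genes 3 were higher and 2 lower (2 and 1 without either PGE2 replicate). Fbxo31 was higher, at 21.8 FPKM after PGE1 and 11.0 FPKM after PGE2 (adjusted p = 0.000156). Fbxo4 was also higher, at 3.83 FPKM after PGE1 and 1.94 FPKM after PGE2 (adjusted p = 0.000279). Skp2 was lower, at 3.98 FPKM after PGE1 and 6.71 FPKM after PGE2 (adjusted p = 0.000787).

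Marker genes differed between the 2 compounds as well, and their part in these differences was not tested. Neutrophil markers were lower after PGE1 in 8 of 9 tests (5 without PGE2 replicate 2), with summed FPKM of 1635 to 2354 after PGE1 against 4962 to 4994 after PGE2. Of 9 monocyte markers 1 was higher and 6 lower (2 and 6 without PGE1 replicate 2), with Cd14 at 296.7 FPKM after PGE1 and 70.9 FPKM after PGE2 and Mpeg1 at 26.2 FPKM after PGE1 and 62.4 FPKM after PGE2. Of 7 mast cell and basophil markers 4 were higher and 1 lower (none lower without PGE1 replicate 1, PGE1 replicate 3 or either PGE2 replicate), with sums of 253.6 to 329.1 after PGE1 against 181.2 to 184.8 after PGE2 and Gata1 at 20.6 FPKM after PGE1 and 6.85 FPKM after PGE2. Of 5 erythroid markers 2 were higher and 1 lower, with the lower one lost when any library but PGE1 replicate 2 was left out (then 2 lower) and 1 higher without PGE2 replicate 1, and Klf1 was at 4.84 FPKM after PGE1 and 1.18 FPKM after PGE2. Of 8 megakaryocyte markers 1 was higher and 3 lower (5 lower without PGE1 replicate 2), and of 2 lymphoid markers 1 was higher and 1 lower (none higher without PGE2 replicate 1). Of the 6 sort and early progenitor genes 3 were higher, with log2 differences of 0.84 for Kit, 1.20 for Meis1 and 0.84 for Gata2, and 2 lower, at -1.25 for Cd34 and -2.86 for Mpo.

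The deletion of Tcf1 and Lef1 was read in untreated cells, against WT. In dKO cells 3 cyclins rose, Ccnd2, Ccne1 and Ccne2, and Ccnd1 fell, while the inhibitors Cdkn1b, Cdkn1c and Cdkn2c fell. Of the 9 genes above the minimum mean of 1 FPKM, 7 passed the test, 3 higher and 4 lower (limma over 10721 genes), where 40.9% of all genes were called, 18.0% higher and 22.9% lower, and where dKO and WT libraries did not overlap in 54.9%. One of the 7, Cdkn1c, reached that minimum only through its level in WT. The median log2 difference was -0.24 over the 9 genes and -0.01 over all genes tested. Without dKO replicate 1, whose genotype field disagrees with its title, 8 passed.

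Ccnd1, known in other cells as a target of beta-catenin and Tcf/Lef factors, was at 4.45, 3.31 and 4.43 FPKM in dKO, against 8.72, 9.16 and 8.18 FPKM in WT. It fell 2.14-fold with no overlap (log2 difference -0.94, SE 0.10, adjusted p = 0.00027). Ccnd2 was at 67.8, 72.2 and 68.7 FPKM in dKO, against 60.9, 61.8 and 60.5 FPKM in WT, a rise of 1.14-fold (log2 difference 0.19, SE 0.04, adjusted p = 0.00602) that was lost under quantile normalization (log2 difference 0.10, adjusted p = 0.067). Ccnd3 was at 98.7, 72.2 and 78.1 FPKM in dKO, against 70.5, 68.0 and 71.6 FPKM in WT. Its groups did not overlap, but dKO replicate 1 stood well above the others and the difference did not pass (log2 difference 0.23, 95% CI -0.01 to 0.47, adjusted p = 0.109); without dKO replicate 2 it was 0.32 (adjusted p = 0.0356).

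Both E-type cyclins were higher in every dKO library than in any WT library. Ccne1 was at 15.4, 14.8 and 14.6 FPKM in dKO, against 11.4, 11.5 and 12.1 FPKM in WT (1.28-fold, log2 difference 0.33, SE 0.04, adjusted p = 0.000984). Ccne2 was at 12.8, 10.4 and 11.2 FPKM in dKO, against 8.85, 8.90 and 9.13 FPKM in WT (1.28-fold, log2 difference 0.32, SE 0.07, adjusted p = 0.00901). Ccne1 made up 54.6% to 58.6% of the E-type cyclin FPKM in dKO libraries and 56.2% to 56.9% in WT libraries.

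Cdkn1c was the inhibitor with the largest fold difference. It was at 0.412, 0.0609 and 0.389 FPKM in dKO (25, 4 and 25 reads), against 2.04, 1.99 and 1.69 FPKM in WT (129, 124 and 109 reads). Its mean was 6.64-fold lower in dKO, at 0.287 FPKM against 1.91 FPKM in WT, and dKO replicate 2 held the fewest reads. It thus met the minimum mean of 1 FPKM only through the WT libraries. The log2 difference of -1.19 (SE 0.13, adjusted p = 0.000343) became -2.55 with a pseudocount of 0.1 and -0.79 after quantile normalization, and passed in both.

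Cdkn1b was at 7.70, 6.68 and 6.40 FPKM in dKO, against 10.7, 11.5 and 11.4 FPKM in WT, and fell 1.62-fold with no overlap (log2 difference -0.63, SE 0.07, adjusted p = 0.000366). Cdkn2c was at 4.66, 3.72 and 3.14 FPKM in dKO, against 6.66, 5.67 and 5.40 FPKM in WT, and fell 1.54-fold (log2 difference -0.52, SE 0.12, adjusted p = 0.0112). Cdkn1a did not pass, at 61.5, 46.8 and 40.2 FPKM in dKO, against 57.0, 59.3 and 56.4 FPKM in WT (log2 difference -0.24, 95% CI -0.54 to 0.07, adjusted p = 0.184). Here dKO replicate 1 lay above all WT libraries and the other dKO libraries below them, and without that library the difference was -0.40 (adjusted p = 0.00171). Cdkn2d lay below the minimum level, at 0.824 ± 0.274 FPKM in dKO against 1.07 ± 0.196 FPKM in WT.

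Of 14 S-phase genes, 12 were higher and none lower in dKO, by small amounts (median log2 difference 0.14). That count was 5 after quantile normalization, 5 without WT replicate 2 and 4 without WT replicate 3. Rrm2 rose to 115.7 FPKM in dKO, against 83.4 FPKM in WT (adjusted p = 0.000289), and Mcm2 to 99.1 FPKM, against 85.2 FPKM in WT (adjusted p = 0.00307). Mcm6, another helicase subunit, rose to 130.2 FPKM in dKO, against 117.1 FPKM in WT (adjusted p = 0.00889), but not under quantile normalization (adjusted p = 0.392).

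Of 8 G1 kinases and partners 3 were higher and none lower in dKO (median 0.14; 5 higher without dKO replicate 1 or with median-of-ratios scaling, and 4 higher and 1 lower with quantile normalization). Cdc25a stood at 30.9 FPKM in dKO against 24.6 FPKM in WT (adjusted p = 0.00176), and Cdc37, a chaperone partner of Cdk4, at 140.9 FPKM in dKO against 122.8 FPKM in WT (adjusted p = 0.0126, but 0.137 under quantile normalization). Cdk4 was at 244.3 FPKM in dKO against 216.8 FPKM in WT (adjusted p = 0.0175, but 0.0721 without WT replicate 1 and 0.0706 without WT replicate 3). Of 13 pocket proteins and E2F or DP factors 2 were higher and 1 lower (2 and 3 without dKO replicate 1, and 1 and 1 without any other library), with E2f4 at 59.1 FPKM in dKO against 51.2 FPKM in WT (adjusted p = 0.00318) and the pocket protein Rbl1 at 12.0 FPKM in dKO against 14.2 FPKM in WT (adjusted p = 0.00358). The third, the atypical repressor E2f8, stood at 23.3 FPKM in dKO against 21.4 FPKM in WT (adjusted p = 0.0391) and did not pass when any single library was left out. Of 9 turnover genes 3 were higher and 2 lower, with Cks1b, the cofactor of Skp2, at 104.8 FPKM in dKO against 87.5 FPKM in WT (adjusted p = 0.000901). Skp1a, a core subunit of the ligase, was likewise higher, with 65.8 FPKM in dKO against 57.7 FPKM in WT (adjusted p = 0.00488), and Fbxo4 was lower, with 1.06 FPKM in dKO against 1.89 FPKM in WT (adjusted p = 0.00205).

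Cell type markers also differed between the genotypes, and their part in these differences was not tested. All 9 monocyte and macrophage markers tested were lower in dKO, with summed FPKM of 142.6 to 161.6 in dKO against 833.3 to 865.8 in WT. All 8 megakaryocyte markers were lower, with sums of 49.5 to 100.2 in dKO against 220.8 to 242.5 in WT. Mast cell and basophil markers were lower in 6 of 7 tests (sums of 81.2 to 90.4 in dKO against 142.7 to 145.3 in WT) and erythroid markers in 3 of 5 (8.02 to 10.4 in dKO against 17.3 to 18.3 in WT). Neutrophil markers were split, with 3 higher and 5 lower of 9. Their sums were 6037 to 6504 in dKO against 4586 to 4759 in WT. Elane and Prtn3 had the highest levels of that list and were higher, at 2806 and 1862 FPKM in dKO against 2030 and 1158 FPKM in WT. The lower ones included Camp and Mmp8, at 8.27 and 2.75 FPKM in dKO against 49.2 and 11.9 FPKM in WT. Of 4 lymphoid markers 1 was higher and 1 lower, with 0 to 2 higher and 1 to 2 lower when single libraries were left out. Of the 6 sort and progenitor genes 1 was higher and 5 were lower (3 lower without WT replicate 1, WT replicate 2 or dKO replicate 3), Ly6a at 3.12 FPKM in dKO against 11.3 FPKM in WT (adjusted p = 1.24e-05). Ddx3y was at 0 in all 3 dKO libraries and at 8.45 ± 0.646 FPKM in WT, and Xist was at 12.4 to 27.6 FPKM in dKO against 9.81 to 10.6 FPKM in WT (adjusted p = 0.0198). The WT libraries thus held transcripts of both sexes and the dKO libraries those of female cells, and this difference in sex makeup cannot be told apart from the deletion.

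DMSO cells were also set against untreated WT cells. These groups differ in the further 6 h of culture, the vehicle and library depth, which cannot be told apart, and this comparison shares its WT libraries with that of dKO and its DMSO libraries with those of the prostaglandins. Of the 10 genes, 7 passed the test, 3 higher and 4 lower in DMSO (limma over 11115 genes), where 56.6% of all genes were called, 26.0% higher and 30.7% lower, and where DMSO and WT libraries did not overlap in 64.3%. The median log2 difference was -0.10 over the 10 genes and -0.03 over all genes tested.

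All 3 Cip/Kip inhibitors were higher in DMSO libraries. Cdkn1c stood at 4.13 ± 0.532 FPKM in DMSO and 1.91 ± 0.187 FPKM in WT (2.16-fold, log2 difference 0.82, SE 0.09, adjusted p = 0.000209). Cdkn1a stood at 96.96 ± 4.39 FPKM in DMSO and 57.6 ± 1.53 FPKM in WT (1.68-fold, log2 difference 0.74, SE 0.05, adjusted p = 9.1e-06). Cdkn1b stood at 13.9 ± 0.317 FPKM in DMSO and 11.2 ± 0.430 FPKM in WT (1.24-fold, log2 difference 0.29, SE 0.05, adjusted p = 0.00133). None of these groups overlapped.

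The cyclins that fell were Ccnd2 (log2 difference -0.48, adjusted p = 3.89e-05), Ccne1 (-0.37, adjusted p = 0.000807), Ccnd1 (-0.32, adjusted p = 0.00283) and Ccne2 (-0.22, adjusted p = 0.00519). Ccnd3 was at 63.7 ± 5.14 FPKM in DMSO and 70.1 ± 1.82 FPKM in WT and did not pass (log2 difference -0.14, adjusted p = 0.0784), but did so without DMSO replicate 1, at -0.20 (adjusted p = 0.000966). Cdkn2c (-0.02) and Cdkn2d (-0.05) overlapped between the groups. Cdkn2b, below the minimum level, was at 0.599 to 0.872 FPKM in DMSO (18 to 26 reads) and 0.0440 to 0.108 FPKM in WT (2 to 5 reads).

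Of 14 S-phase genes 1 was higher and 13 were lower in DMSO (median -0.49), with Rrm2 at 50.95 FPKM in DMSO and 83.4 FPKM in WT (adjusted p = 8.11e-06), and Rrm1, its partner subunit in ribonucleotide reductase, at 47.8 FPKM in DMSO and 69.1 FPKM in WT (adjusted p = 2.72e-05). Of 8 G1 kinases and partners none was higher and 7 were lower, of 13 pocket proteins and E2F or DP factors 1 was higher and 8 were lower (none higher without any single library but DMSO replicate 1), and of 9 turnover genes 2 were higher and 3 lower (1 higher without WT replicate 1 or 3 or DMSO replicate 2 or 3). Cdk4 was at 139.5 FPKM in DMSO and 216.8 FPKM in WT (adjusted p = 0.000139), and Tfdp1 at 34.9 FPKM in DMSO and 53.6 FPKM in WT (adjusted p = 5.85e-05). Skp2 was at 5.79 FPKM in DMSO and 8.03 FPKM in WT (adjusted p = 0.000443), and Cks1b at 55.6 FPKM in DMSO and 87.5 FPKM in WT (adjusted p = 0.000255).

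Markers differed between DMSO and WT in both directions within most lists, and their part was not tested. Of 9 neutrophil markers 3 were higher and 5 lower, with sums of 3447 to 4118 in DMSO against 4586 to 4759 in WT. The granule protease genes Elane and Prtn3 had the highest levels of that list and were lower, at 1275 and 743.1 FPKM in DMSO against 2030 and 1158 FPKM in WT, while Mmp8, Lcn2 and S100a9 were higher by 1.04, 0.42 and 0.30 on the log2 scale. Of 7 mast cell and basophil markers 4 were higher and 1, Cpa3, lower (2 lower without DMSO replicate 1), with sums of 186.2 to 206.8 in DMSO against 142.7 to 145.3 in WT. Of 9 monocyte markers 3 were higher and 1 lower (2 lower without DMSO replicate 1), with Cd14 at 46.6 FPKM in DMSO and 19.9 FPKM in WT, and of 5 erythroid markers 2 were higher, with Hbb-b1 at 15.9 FPKM in DMSO and 9.26 FPKM in WT, and none lower (1 lower without WT replicate 2). Of 8 megakaryocyte markers 1 was higher and 1 lower (0 to 3 higher when single libraries were left out), and of 3 lymphoid markers 1 was higher and 1 lower (2 lower without WT replicate 2). Of the 6 sort and early progenitor genes Ly6a and Gata2 were higher and Cd34 and Mpo lower (1 higher without WT replicate 2 or 3), with Cd34 at 40.9 FPKM in DMSO and 65.4 FPKM in WT and Mpo at 1331 FPKM in DMSO and 2499 FPKM in WT.

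Ordered by group mean, the genes fell into different patterns across the 5 groups. The group means of log2(FPKM + 1) spanned 2.68 for Ccnd2, 2.51 for Ccnd1, 2.06 for Ccne1, 2.04 for Cdkn1b, 2.0 for Cdkn1c, 1.56 for Cdkn1a and 1.31 for Ccne2, and less than 1 for Ccnd3, Cdkn2c and Cdkn2d. From lowest to highest, Ccnd1 ran PGE1, dKO, PGE2, DMSO, WT, and Ccnd2, Ccne1 and Ccne2 ran PGE1, DMSO, PGE2, WT, dKO, with no overlap between neighbours. Cdkn1a and Cdkn1b ran dKO, WT, PGE2, DMSO, PGE1, where PGE2 and DMSO overlapped for both genes and dKO and WT for Cdkn1a. Cdkn1c ran dKO, WT, PGE1, PGE2, DMSO, with PGE2 and DMSO overlapping. Neighbouring groups overlapped throughout for Cdkn2d and, except between dKO and DMSO, for Cdkn2c.

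Genes whose 5 centred group means lay closest to a member were found among 10516 genes by Euclidean distance on the log2(FPKM + 1) scale, as a description over 5 groups. Ccne1 was closest to Rrs1 (distance 0.08), Smco4 (0.09) and Sdad1 (0.12), and Ccne2 to Ndufaf6 (0.07), Vprbp (0.07) and Tuba8 (0.08). Cdkn1b was closest to Gpr183 (0.13), Gpr132 (0.15) and Abcc5 (0.16). Ccnd2 was closest to Ydjc (0.16), Igfbp4 (0.22) and Arsb (0.24), Cdkn1a to D17H6S53E (0.15), Epm2aip1 (0.20) and Psd (0.21), and Cdkn1c to Oas2 (0.19), Cd300lf (0.22) and Mir7058 (0.23). Ccnd1 had no gene as close: its nearest were Snord100 (0.39), Snord12 (0.42) and Snord22 (0.51).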

How the data were processed

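RNA-seq of 14 libraries was analysed, 1 deposited table each. The authors made the deposited FPKM values with CASAVA 1.8, TopHat and Cufflinks on the mouse build mm9, per the submitters' processing notes. Strand handling, read length and annotation are not given in these sources, so reads of a gene and its antisense partner cannot be told apart. In all 19057 genes with reads, FPKM values were whole multiples of 1 read's worth (within 0.0001 of a read), which gave the read numbers and depths printed. These cover counting error only.

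Two-sided tests used limma 3.58.1 in R 4.3.3 (eBayes, trend on) with log2(FPKM + 1) as input. A gene entered a fit if it averaged 1 FPKM or more there, p-values were Benjamini-Hochberg adjusted over all such genes, and the threshold was 0.05. The dKO and WT libraries were 1 fit, the DMSO and WT libraries another, and the PGE1, PGE2 and DMSO libraries a separate one, where PGE2, with 2 libraries, shares the estimate of spread. Fits were also run on simulated data with the same spread set for every library, which cannot show how they handle outlying libraries or unequal groups. Folds are ratios of mean FPKM. Python 3.11.15, numpy 2.4.6, pandas 2.3.3 and matplotlib 3.10.9 did the rest. Alternatives were a pseudocount of 0.1, no filter, a minimum of 5 FPKM, quantile normalization, median-of-ratios scaling, a replicate block and each library left out.

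The members, lists and motifs were chosen with earlier results of these data known. Named pathway genes are up to 3 called genes per list and comparison with the smallest p, with Kit, Ly6a, Ddx3y, Tcf7 and genes below the minimum level beside them, and not every gene the rule allows is printed.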

Additional observations from a re-analysis of the deposited data

Results flagged for a closer look

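The effects of PGE1 and PGE2, both against the same DMSO libraries, differed for 8 of the 10 genes when the difference itself was tested, which is the contrast of PGE1 with PGE2 (limma, Benjamini-Hochberg adjusted p under 0.05 over 11242 genes, where 53.9% of all genes passed). The log2 differences, PGE1 minus PGE2, were -2.02 for Ccnd1, -2.36 for Ccnd2, -0.37 for Ccnd3, -1.51 for Ccne1, -0.95 for Ccne2, 0.58 for Cdkn1a, 1.17 for Cdkn1b and -0.38 for Cdkn1c. The PGE1 and PGE2 libraries did not overlap for any of these 8 genes, nor for 69.9% of all genes tested. The calls of Ccnd3 and Cdkn1c did not hold when single libraries were left out.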

How the results depend on the processing

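Of 635 values of single members under the alternatives, 611 kept their direction and their side of the threshold, 9 no longer passed, 4 newly passed and 11 changed sign. Of 29 calls, 26 held under every alternative in which the gene was tested. The exceptions were Ccnd2 in dKO against WT under quantile normalization, and Ccnd3 and Cdkn1c in PGE1 against PGE2, the second of which also missed the threshold with no filter (adjusted p = 0.0502). The values that changed sign belonged to genes that were not called. In PGE2 against DMSO, Cdkn1a was at 0.031 with median-of-ratios scaling and ran from -0.034 to 0.031 with single libraries left out, Cdkn1b from -0.104 to 0.003, Cdkn2c from -0.018 to 0.199 and Cdkn2d from -0.007 to 0.121. Left-out values ran from -0.004 to 0.087 for Cdkn2d in PGE1 against PGE2, and in DMSO against WT from -0.136 to 0.081 for Cdkn2c and from -0.134 to 0.001 for Cdkn2d.

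With single libraries left out, members called ran from 7 to 8 in dKO against WT, 7 to 7 in PGE1 against DMSO, 0 to 1 in PGE2 against DMSO, 6 to 8 in PGE1 against PGE2 and 7 to 8 in DMSO against WT. Genes called ran from 3098 to 5244, 4538 to 6136, 121 to 1206 (626 with all libraries), 4255 to 6666 and 5293 to 7200 in the same order. In PGE2 against DMSO the count was 151 without PGE2 replicate 1, 121 without PGE2 replicate 2, 246 without DMSO replicate 2, 243 without DMSO replicate 3 and 1206 without PGE1 replicate 2. Where 1 PGE2 library was left, it was assumed to vary like the other groups. In dKO against WT, 44.1% of calls were higher, against 60.2% with quantile normalization, 56.1% with median-of-ratios scaling and 54.7% at a minimum of 5 FPKM. No scaling moved the median of all genes by more than 0.1 (log2).

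Deviations of same-numbered libraries from their group means had correlations from -0.249 to 0.253. With so few libraries per group such deviations are tied to one another, so this check cannot decide whether the numbers pair the samples. With a replicate block, 7, 7, 0, 7 and 7 members were called in the same order of comparisons, Cdkn1c no longer passed in PGE1 against PGE2 (adjusted p = 0.0605), and genes called in PGE2 against DMSO numbered 269. Depth limits Cdkn2d, with 23 to 49 reads per library, and Cdkn1c in dKO.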
